A study of Mus musculus with 141 samples.

Results

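The 10 mouse genes that write, remove or metabolically govern DNA methylation, or depend on the same metabolites, were followed in the single-cell CpG methylation table: the methyltransferase genes Dnmt1, Dnmt3a and Dnmt3b, the 5-methylcytosine dioxygenase genes Tet1, Tet2 and Tet3, the isocitrate dehydrogenase genes Idh1 and Idh2, and the dioxygenase genes Alkbh3 and Egln3. They were taken by name, as 10 of 21631 protein-coding genes, with no threshold on methylation but with earlier results of these data known. Positions inside each gene or within 1 kb of either end were used, which gave 1263 of the 1416034 positions of the table. Merging the 2 strands of a CpG left 1145 CpGs, and 456 of them had a call in at least 5 cells of each arm. Levels below are over those 456 CpGs, as the percent of all calls that were methylated.

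The cells were IdhR132H mouse glioma cells, which carry the mutant isocitrate dehydrogenase in both arms. One arm of 67 cells was cultured with 1 µM AG-881 (vorasidenib, an inhibitor of mutant IDH1 and IDH2), and the other arm of 74 cells with the vehicle DMSO, each for more than 2 weeks. Live single cells, positive for calcein AM and negative for TO-PRO-3, were sorted into plates and profiled by reduced representation bisulfite sequencing after a cut with MspI, jointly with Smart-seq2 transcriptomes that were not analysed here. Each arm was 1 plate, no separate cultures are named, and the labels give no other genotype or treatment and not how the line was made.

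Cytosine methylation at CpGs is laid down by DNMT3A and DNMT3B, copied at replication by DNMT1, and oxidised by the TET enzymes. The TET enzymes belong to a family of dioxygenases that need 2-oxoglutarate, the product of normal IDH enzymes, and D-2-hydroxyglutarate made by mutant IDH competes with it. IDH-mutant gliomas are known for dense methylation of CpG islands, and the genes here include the enzymes at each step of that chain.

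A cell had a median of 89440 CpGs with a call in the AG-881 arm (23895 to 190259) and 67749 in the DMSO arm (10438 to 165853). The column names place the cells in 8 numbered library pools, 1 to 4 from the AG-881 plate and 5 to 8 from the DMSO plate, so a difference between pools and a difference between arms cannot be told apart. Over all CpGs shared by the arms, the AG-881 arm had 25.4% methylated calls and the DMSO arm 26.8%. With 1 plate per arm there is no replicate check and no test. The 95% intervals are exact (Clopper-Pearson) and hold for counting error alone; calls from 1 cell go together, so they are too narrow as intervals for an arm. A difference is AG-881 minus DMSO in percentage points, and it was counted when it reached 5 points with at least 50 calls and 10 cells in each arm.

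The sequences upstream of 3 of the genes show what was read. Each is the 250 bases before an annotated start in RefSeq on GRCm38.p6, printed 5′ to 3′ on the strand of the gene, and capitals mark the CpGs that had a call in at least 5 cells of each arm. Alkbh3 (chr2:94010731-94010980, minus strand) is shown because its upstream CpGs held the largest start difference among the 10 genes. The Alkbh3 CpG with the most methylated DMSO calls, at base -315 with 5 of 13, lies beyond the printed stretch. The stretch before the outer of 2 neighbouring starts of Dnmt3a (chr12:3806730-3806979, plus strand), which lies within the window around the inner one, the start used for the values below, and an internal start of the same gene (chr12:3891494-3891743, plus strand) are shown as an almost unmethylated and a mostly methylated stretch of 1 gene. Idh1 (chr1:65186480-65186729, minus strand) is shown as a start with no methylated call.
Alkbh3: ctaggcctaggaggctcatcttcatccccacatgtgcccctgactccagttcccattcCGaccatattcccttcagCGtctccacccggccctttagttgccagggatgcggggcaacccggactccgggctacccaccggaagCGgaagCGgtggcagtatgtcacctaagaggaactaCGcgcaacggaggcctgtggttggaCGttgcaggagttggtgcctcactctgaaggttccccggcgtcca
Dnmt3a outer start: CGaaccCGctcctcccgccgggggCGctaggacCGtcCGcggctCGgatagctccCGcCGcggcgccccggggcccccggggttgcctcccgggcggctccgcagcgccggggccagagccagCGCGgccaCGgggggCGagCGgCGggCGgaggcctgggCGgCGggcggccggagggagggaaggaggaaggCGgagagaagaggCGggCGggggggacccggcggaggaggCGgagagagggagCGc
Dnmt3a internal start: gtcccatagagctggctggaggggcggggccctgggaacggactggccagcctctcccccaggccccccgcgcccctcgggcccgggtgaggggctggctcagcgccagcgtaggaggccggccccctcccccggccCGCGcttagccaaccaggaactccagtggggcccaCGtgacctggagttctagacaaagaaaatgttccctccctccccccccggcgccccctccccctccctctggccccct
Idh1: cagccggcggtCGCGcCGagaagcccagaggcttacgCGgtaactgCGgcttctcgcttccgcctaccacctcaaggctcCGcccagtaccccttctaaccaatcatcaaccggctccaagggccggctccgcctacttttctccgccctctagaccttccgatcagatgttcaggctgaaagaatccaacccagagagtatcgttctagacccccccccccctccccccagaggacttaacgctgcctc
The MspI site CCGG, which reads the same on both strands, occurs 5 times in the printed stretch of Alkbh3, 7 times at the outer start of Dnmt3a, 4 times at its internal start and 3 times in Idh1. Of 32851 RefSeq promoters of 300 bases, 52.8% hold at least 1 such site, and the median promoter holds 7 CpGs. The 300-base promoters of the 10 genes at the starts used held 12 to 57 CpGs.

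The starts of all 10 genes were measured, and most were nearly free of methylation in both arms. The median level of the 10 was 0.728% with AG-881 and 1.47% with DMSO, and 6 of the 10 were under 5% in both arms. Among 7819 gene starts measured the same way the medians were 0.610% with AG-881 and 0.83% with DMSO, and 75.0% of them were under 5% in both arms. Of the 10 starts, 6 were lower with AG-881, 3 were higher and Idh1 was at 0 in both. Alkbh3 and Egln3 were lower by at least 5 points, 2 of 10 genes beside 8.52% of all starts, and 0 of 10 were higher by as much beside 2.62% of all starts. The genes were chosen with earlier results of these data known, so these counts are descriptive. They also depend on the minimum of 5 cells per CpG. Without it, Idh2 was at 10.8% with AG-881 and 2.53% with DMSO, which would count as higher. Egln3 was then at 4.95% with AG-881 and 7.63% with DMSO, which would not count. Alkbh3, at 3.60% with AG-881 and 9.52% with DMSO, would still count as lower. The median difference was -0.48 points for the 10 genes and -0.02 points for all starts.

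**Figure D1:**
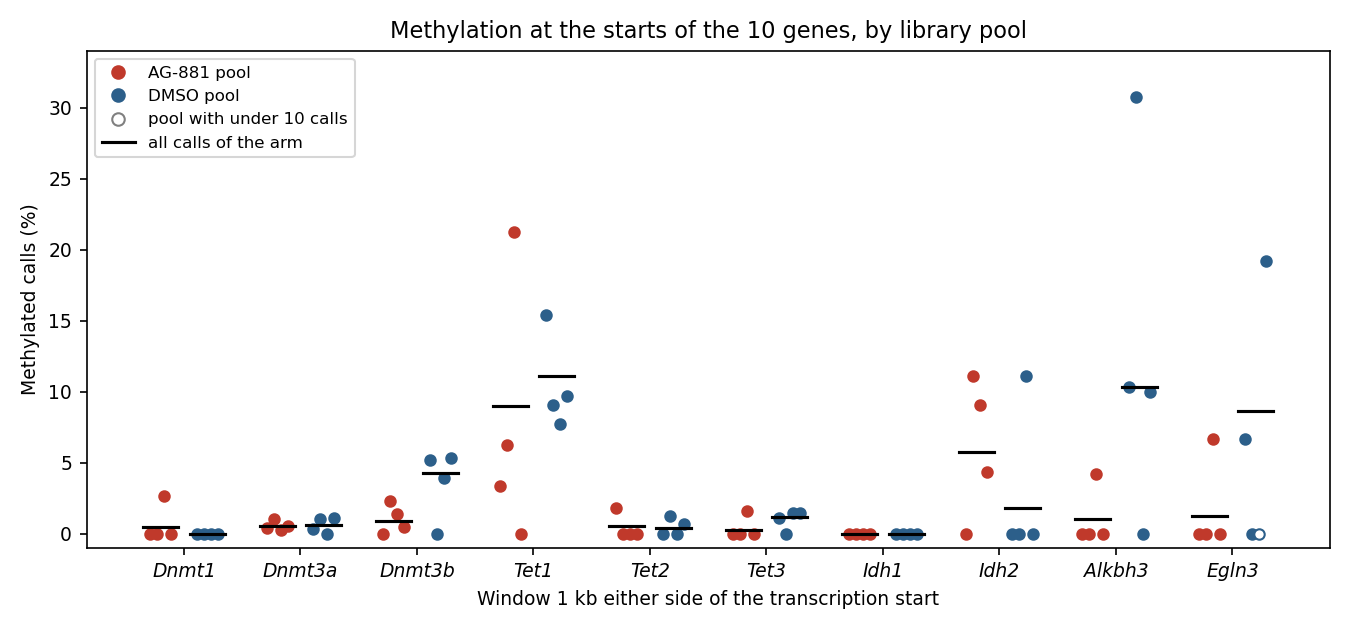
Percent of methylated calls in the window 1 kb either side of the start of each of the 10 genes. Each point is 1 library pool, AG-881 pools left of DMSO pools, open where a pool had under 10 calls, and the black line is the level over all calls of the arm. The Alkbh3 line lies at 1.04% for AG-881 and 10.3% for DMSO, and the pools of the arms overlap in every gene.

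With all starts pooled, AG-881 cells had 35 of 3276 calls methylated (1.07%, interval 0.745 to 1.48) and DMSO cells 59 of 3033 (1.95%, interval 1.48 to 2.50), a difference of -0.88 points. The pools reached 0.559%, 1.51%, 2.12% and 0.444% with AG-881, against 2.02%, 1.79%, 1.29% and 2.55% with DMSO. The highest AG-881 pool, the third, lay above 3 of the 4 DMSO pools. Among the 9 starts with at least 10 calls in every pool, 0 had all AG-881 pools on one side of all DMSO pools, beside 1.32% of 6523 starts with all AG-881 pools lower and 0.169% with all of them higher.

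The maintenance methyltransferase gene Dnmt1 was almost unmethylated at its start. It had 1 of 202 methylated calls with AG-881 (0.495%) and 0 of 180 with DMSO, which allows up to 1.67%. Its 19 CpGs at bases 158 to 436 after the start made up most of these calls. They lie at chr9:20952543 to 20952821, either side of a further annotated start at chr9:20952623, whose 300-base promoter holds 33 CpGs. The 300-base promoter of the start used held 12 CpGs, and 0 of them had a call. An outer annotated start of Dnmt1, with only 2 CpGs in its 300-base promoter, had no CpG in the table within 1 kb.

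Dnmt3a, a de novo methyltransferase gene, had the best covered start of the 10, with 121 CpGs. It had 7 of 1272 methylated calls with AG-881 (0.550%, interval 0.222 to 1.13) and 7 of 1166 with DMSO (0.600%, interval 0.242 to 1.23). The 4 AG-881 pools lay between 0.291% and 1.06% and the 4 DMSO pools between 0% and 1.10%, so the arms overlapped over their whole range. The methylated calls came from 6 of 59 cells with AG-881 and 6 of 57 cells with DMSO. The internal start printed above stood at the other extreme. Its 3 shared CpGs, at bases -113 to -78, were methylated in 23 of 23 calls from 9 AG-881 cells and in 20 of 20 calls from 8 DMSO cells, so at these CpGs the internal start was methylated in both arms and the outer one nearly free of methylation. Over all 23 CpGs of the internal window with a call in any cell, 62 of 69 calls were methylated with AG-881 (89.9%) and 46 of 57 with DMSO (80.7%), with pools from 79.3% to 100% in the AG-881 arm and from 75% to 91.7% in the DMSO arm.

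Dnmt3b, the other de novo methyltransferase gene, was lower with AG-881 by less than the 5 points that were counted. It had 4 of 442 methylated calls with AG-881 (0.905%, interval 0.247 to 2.30) and 19 of 442 with DMSO (4.30%, interval 2.61 to 6.63), a difference of -3.39 points (interval -5.82 to -1.20). Methylated calls were seen in 3 of 38 AG-881 cells and in 10 of 36 DMSO cells. By pool, AG-881 had 0 of 79, 2 of 88, 1 of 71 and 1 of 204 calls methylated, against 5 of 96, 0 of 37, 7 of 178 and 7 of 131 with DMSO. At these shared CpGs, DMSO pools 5, 7 and 8 lay above every AG-881 pool and DMSO pool 6 was at 0. Over all CpGs of the window with a call in any cell, AG-881 had 13 of 528 (2.46%) and DMSO 23 of 498 (4.62%). AG-881 pool 2, with 6 of 120 (5%), then lay above DMSO pool 7, with 8 of 196 (4.08%). Leaving out pools, 1 at a time or 1 of each arm together, gave -3.79 to -1.78 points.

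The Dnmt3b calls differed along the window. The first 31 CpGs, at bases -17 to 195, had 0 of 309 methylated calls with AG-881, which allows up to 0.971%, and 7 of 329 with DMSO (2.13%). The 5 CpGs at bases 402 to 426 had 1 of 40 with AG-881 (2.50%) and 9 of 45 with DMSO (20%), these 9 from 6 of 9 cells. The order was the other way at bases 554 to 570, with 3 of 24 methylated calls with AG-881 (12.5%) and 1 of 30 with DMSO (3.33%). Up to base 311 no AG-881 call at the shared CpGs was methylated, and single stretches beyond it differed in both directions.

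**Figure D2:**
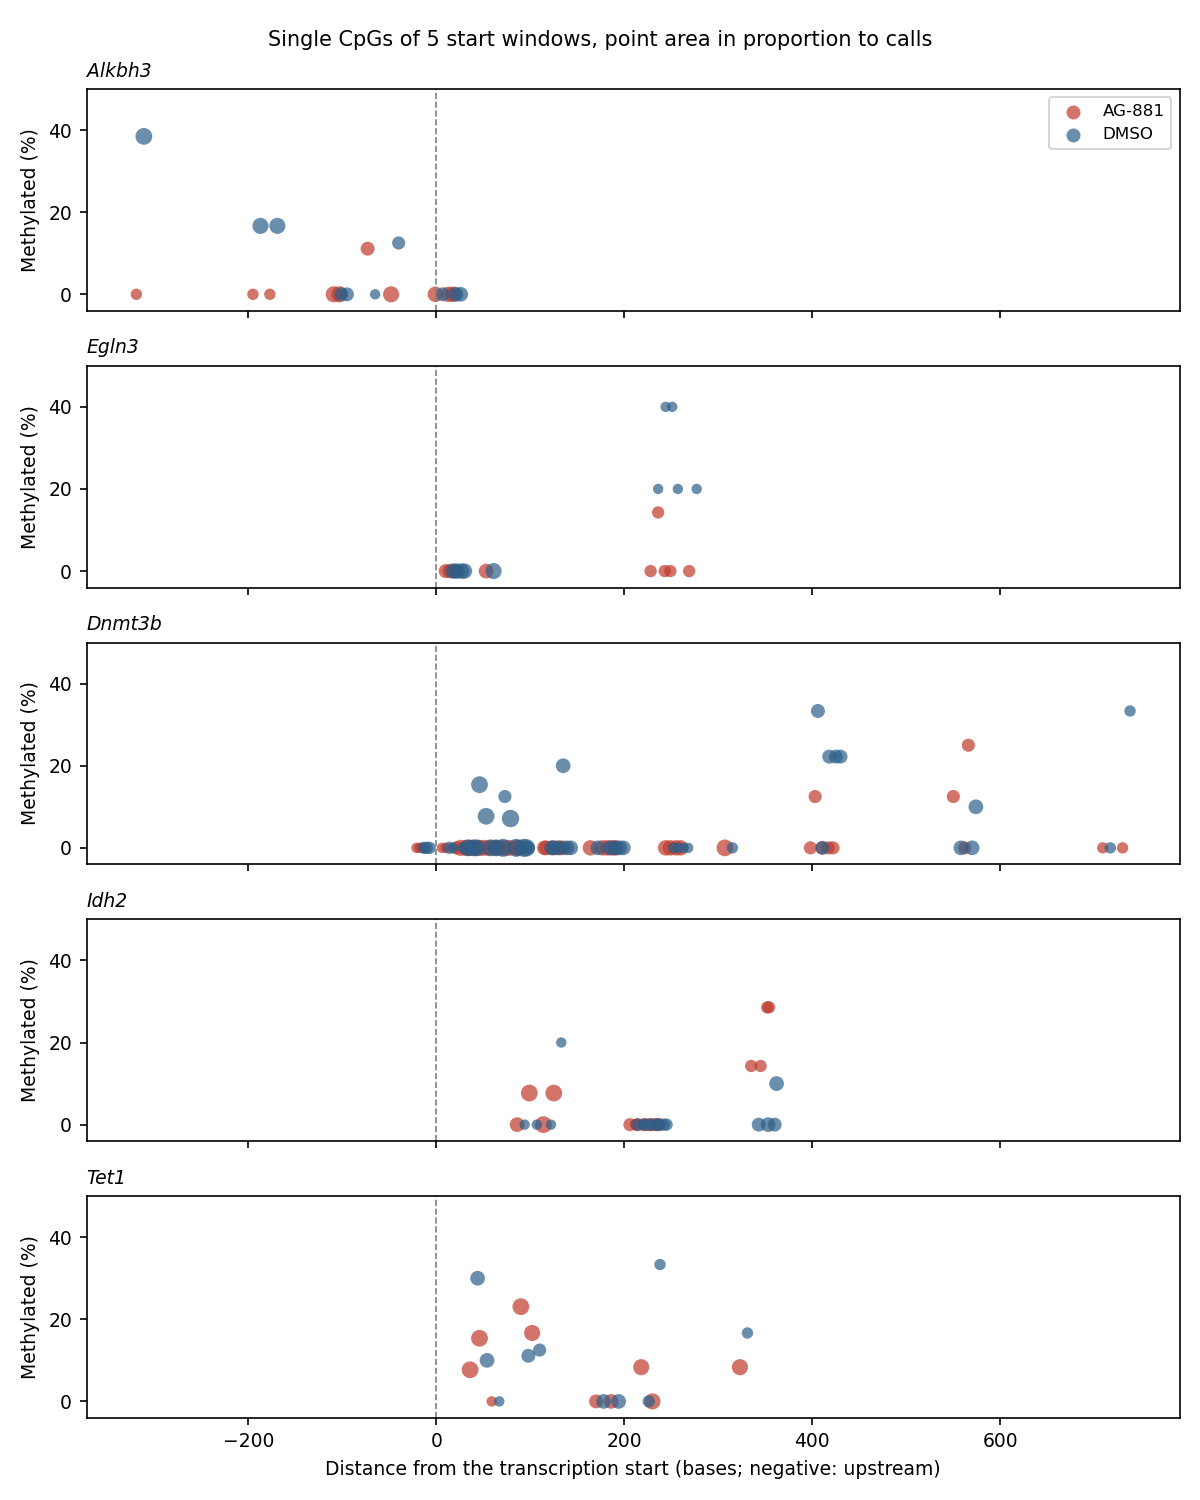
Level of each shared CpG in the start windows of Alkbh3, Egln3, Dnmt3b, Idh2 and Tet1 against its distance from the start in bases. Point area is proportional to the number of calls, and AG-881 points are drawn 4 bases left and DMSO points 4 bases right of the CpG. The DMSO points above 0 in Alkbh3 lie upstream of base 0, and the Alkbh3 CpG at base -315 reaches 38.5%.

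Among the TET genes, whose enzymes oxidise 5-methylcytosine as the first step of its removal, Tet1 had the only start of the 10 that was above 5% in both arms. It had 10 of 111 methylated calls with AG-881 (9.01%, interval 4.41 to 15.9) and 9 of 81 with DMSO (11.1%, interval 5.21 to 20.05), a difference of -2.10 points (interval -12.2 to 7.01). The AG-881 pools were at 3.33%, 6.25%, 21.2% and 0%, against 15.4%, 9.09%, 7.69% and 9.68% in the DMSO pools. AG-881 pool 3 was the highest of all 8 and AG-881 pool 4 the lowest, so the spread within the AG-881 arm covered the DMSO arm. Methylated calls came from 5 of 26 AG-881 cells and 8 of 24 DMSO cells.

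The 5 CpGs of Tet1 at bases 40 to 106 had 8 of 56 methylated calls with AG-881 and 6 of 42 with DMSO, 14.3% in both arms. In the AG-881 arm these 8 calls came from 3 cells and 4 of them from 1 cell, against 5 cells in the DMSO arm. Differences from -12.2 to 7.01 points lie within the interval of the Tet1 start, and a difference of that size was not detectable at this depth. The sign turned with a window of 2 kb (1.96 points), without DMSO pool 5 (3.999 points) and without AG-881 pool 1 and DMSO pool 5 together (7.31 points).

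Tet2 and Tet3 were nearly unmethylated at their starts. Tet2 had 2 of 394 methylated calls with AG-881 (0.508%) and 2 of 471 with DMSO (0.425%), and both AG-881 calls came from 1 cell. Tet3 had 1 of 416 with AG-881 (0.240%) and 3 of 262 with DMSO (1.15%). The outer bound of Tet3 was lower still, with 0 of 673 calls with AG-881, which allows up to 0.446%, and 1 of 500 with DMSO (0.2%). Over all CpGs of that outer window with a call in any cell, AG-881 had 0 of 713 and DMSO 8 of 536 (1.49%). Of these 8 calls, 5 came from DMSO pool 6. Both genes were thus under 2% in both arms when every call had the same weight. With every cell given the same weight instead, Tet2 was at 0.368% with AG-881 and 2.83% with DMSO, and with no minimum of cells per CpG Tet3 was at 0.668% with AG-881 and 2.10% with DMSO.

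Idh1, which encodes the cytosolic isocitrate dehydrogenase, had no methylated call at its start. It had 0 of 123 calls with AG-881, which allows up to 2.44%, and 0 of 141 with DMSO, which allows up to 2.13%, over 14 CpGs upstream of the start, 6 of them in the printed stretch and 8 further upstream. The window is shared with the neighbouring gene Pikfyve. A second annotated start of Idh1 had 7 of 85 methylated calls with AG-881 (8.24%) and 13 of 109 with DMSO (11.9%). All of these lay at 2 CpGs at bases 979 to 995 inside the gene, with 7 of 11 calls methylated with AG-881 and 13 of 19 with DMSO, while the other 8 CpGs of that window were at 0 in both arms.

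Idh2, which encodes the mitochondrial isocitrate dehydrogenase, was the member with the largest difference in the other direction. It had 8 of 139 methylated calls with AG-881 (5.76%, interval 2.52 to 11.03) and 2 of 112 with DMSO (1.79%, interval 0.217 to 6.30), a difference of 3.97 points (interval -1.59 to 9.47). By pool, AG-881 had 0 of 35, 4 of 36, 2 of 22 and 2 of 46 methylated calls, against 0 of 24, 0 of 16, 2 of 18 and 0 of 54 with DMSO. The highest AG-881 pool and DMSO pool 7 were both at 11.1%. Of the 8 AG-881 calls, 6 lay at the 4 CpGs at bases 339 to 358, where AG-881 had 6 of 28 (21.4%) and DMSO 1 of 38 (2.63%), and 4 of the 6 were from 1 cell. Over all alternatives the difference ran from 0.204 to 17.6 points, the highest of them without DMSO pool 8.

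Alkbh3, a dioxygenase gene whose human counterpart removes alkyl groups from DNA and RNA bases, showed the largest start difference of the 10. It had 1 of 96 methylated calls with AG-881 (1.04%, interval 0.0264 to 5.67) and 10 of 97 with DMSO (10.3%, interval 5.06 to 18.1), a difference of -9.27 points (interval -17.2 to -2.27). By pool, AG-881 had 0 of 13, 0 of 22, 1 of 24 and 0 of 37, against 3 of 29, 4 of 13, 0 of 25 and 3 of 30 with DMSO. DMSO pools 5, 6 and 8 lay above every AG-881 pool, and DMSO pool 7 was at 0. Methylated calls were seen in 1 of 21 AG-881 cells and 6 of 27 DMSO cells. Of the 7819 starts, 292, or 3.73%, had a difference as low or lower.

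The difference at Alkbh3 lay upstream of the CpGs nearest to the start. At base -315 the CpG was methylated in 0 of 6 AG-881 cells, which allows up to 50%, and in 5 of 13 DMSO cells (38.5%, interval 13.9 to 68.4). The pair at bases -191 and -173, the first 2 capitals in the printed sequence, had 0 of 12 methylated calls with AG-881, which allows up to 25%, and 4 of 24 with DMSO (16.7%), where 2 of 12 cells were methylated at both CpGs. The 7 CpGs at bases -105 to 22 had 1 of 78 with AG-881 (1.28%) and 1 of 60 with DMSO (1.67%). The CpGs nearest the start were thus near 0 in both arms, and the upstream CpGs rest on 6 AG-881 cells each.

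The value depended on those cells. When a pool was left out and the CpGs with 5 cells per arm were chosen again, the upstream CpGs of Alkbh3 dropped out without AG-881 pool 2 or without AG-881 pool 4, and the difference was -0.05 and 0.46 points. At the CpGs as first chosen, leaving out any 1 of the 8 pools gave -12.8 to -6.10 points.

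Egln3, which encodes a prolyl hydroxylase of the hypoxia-inducible factors, was lower with AG-881, with a difference of -7.41 points (interval -15.9 to 0.0565). It had 1 of 81 methylated calls with AG-881 (1.23%, interval 0.0313 to 6.69) and 7 of 81 with DMSO (8.64%, interval 3.55 to 17). By pool, AG-881 had 0 of 10, 0 of 20, 1 of 15 and 0 of 36, against 2 of 30, 0 of 20, 0 of 5 and 5 of 26 with DMSO. Of the 7 DMSO calls, 5 came from 1 cell of 13. Of the 10 shared CpGs, the 5 at bases 232 to 273 carried every methylated call, with 1 of 35 for AG-881 (2.86%) and 7 of 25 for DMSO (28%), from 3 of 5 cells. The 5 CpGs at bases 14 to 57 had 0 of 46 with AG-881 and 0 of 56 with DMSO. Over all 37 CpGs of the window with a call in any cell, AG-881 had 11 of 222 methylated calls (4.95%) and DMSO 9 of 118 (7.63%). Most AG-881 methylated calls thus lay at CpGs that were not shared.

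The Egln3 value therefore rests on few cells. Without DMSO pool 8 the difference at the same CpGs was -2.40 points, and it was 0 where leaving out AG-881 pool 4, DMSO pool 5 or DMSO pool 8 also dropped the methylated CpGs below 5 cells per arm.

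**Figure D3:**
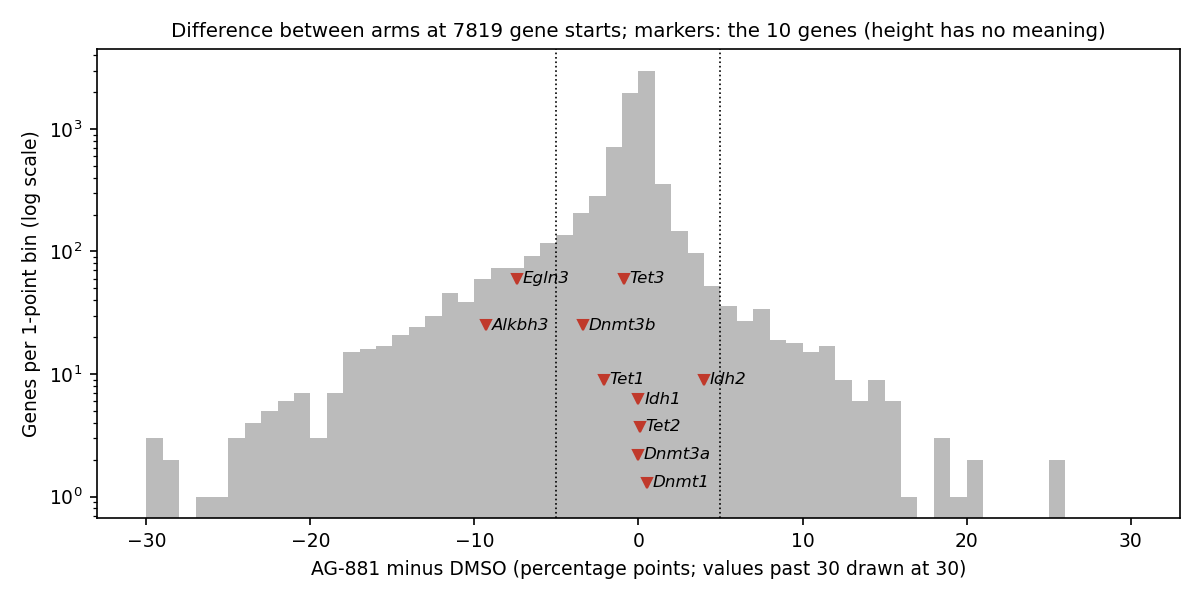
Histogram of the difference between arms (AG-881 minus DMSO, percentage points) at 7819 gene starts, with a log scale for the number of genes per bin and dotted lines at 5 points either way. Triangles mark the 10 genes, and their height has no meaning. Alkbh3 and Egln3 lie left of -5 points, and the other 8 lie between the dotted lines.

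The level a start had in both arms goes with how often such a difference occurred. Among 861 starts with a mean level of 5% to 20%, which is where Alkbh3, Tet1 and, just below it, Egln3 lay, 27.4% were lower with AG-881 by at least 5 points and 6.62% were higher by as much. Among 6025 starts under 5%, 0.481% were lower and 0.232% higher by as much. Across the 34 runs of neighbouring CpGs in the 10 start windows, in which no gap was over 50 bases, 13 reached 5% in either arm and 11 had none methylated. Of the 313 CpGs in these windows, 257 had no methylated call in either arm.

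Inside the genes the levels were mostly high, as in gene bodies generally. Pooled over the 7 genes with shared CpGs, AG-881 cells had 434 of 673 calls methylated (64.5%, interval 60.7 to 68.1) and DMSO cells 366 of 582 (62.9%, interval 58.8 to 66.8). Over 2363 gene bodies the medians were 70.7% with AG-881 and 70.7% with DMSO. Only 4 bodies of the 10 genes had enough calls to be counted, 1 lower and 3 higher, with 2 higher by at least 5 points beside 13.5% of all bodies, and 0 lower by as much beside 22.2%. Dnmt3b, Idh1 and Alkbh3 had no shared body CpG.

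Dnmt1 was methylated over its body in 100 of 105 calls with AG-881 (95.2%, interval 89.2 to 98.4) and 93 of 105 with DMSO (88.6%, interval 80.9 to 94.0), a difference of 6.67 points (interval -1.39 to 14.99). The pools were at 88.2%, 96.7%, 100% and 93.5% with AG-881, against 75%, 95%, 82.1% and 97.3% with DMSO, and the arms overlapped. At Dnmt3a the body level was 73% in the AG-881 arm and 74.2% in the DMSO arm. The counted Dnmt1 difference thus had an interval that includes 0. The Dnmt3a body difference was -1.19 points, with a wide interval of -11.9 to 9.72 that also includes 0.

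The body of Tet1 had 51 of 72 methylated calls with AG-881 (70.8%, interval 58.9 to 81.0) and 37 of 62 with DMSO (59.7%, interval 46.4 to 71.9), a difference of 11.2 points (interval -5.94 to 27.8). The AG-881 pools were at 69.2%, 77.8%, 58.8% and 75.0%, against 53.3%, 53.8% and 73.7% in the 3 DMSO pools with calls. The AG-881 level was the higher one within 2 kb of the start or end, with 21 of 36 calls with AG-881 (58.3%) and 13 of 34 with DMSO (38.2%). These calls came from 1 short stretch of 5 CpGs, at bases 1043 to 1084 after the start, in 9 AG-881 cells and 8 DMSO cells. Deeper in the gene the levels were 83.3% with AG-881 and 85.7% with DMSO, so the sign turned with the distance taken as body.

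Tet3 had a nearly unmethylated edge and a methylated interior in both arms, and its edge CpGs lay by its outer bound. Within 2 kb of a start or end it had 0 of 157 methylated calls with AG-881 and 1 of 141 with DMSO, and deeper in the gene 98 of 105 with AG-881 (93.3%) and 77 of 79 with DMSO (97.5%). Tet2 was methylated in 24 of 24 body calls with AG-881 and 28 of 28 with DMSO, and Idh2 in 50 of 50 with AG-881 and 32 of 34 with DMSO. Egln3 had 1 body CpG, methylated in 0 of 8 AG-881 cells, which allows up to 37.5%, and in 3 of 5 DMSO cells. Over 2 kb from every start and end, the 7 genes together had 320 of 376 methylated calls with AG-881 (85.1%) and 281 of 324 with DMSO (86.7%). At the far ends of the genes only Tet1 had a shared CpG, methylated in 10 of 11 AG-881 cells and 9 of 9 DMSO cells.

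**Figure D4:**
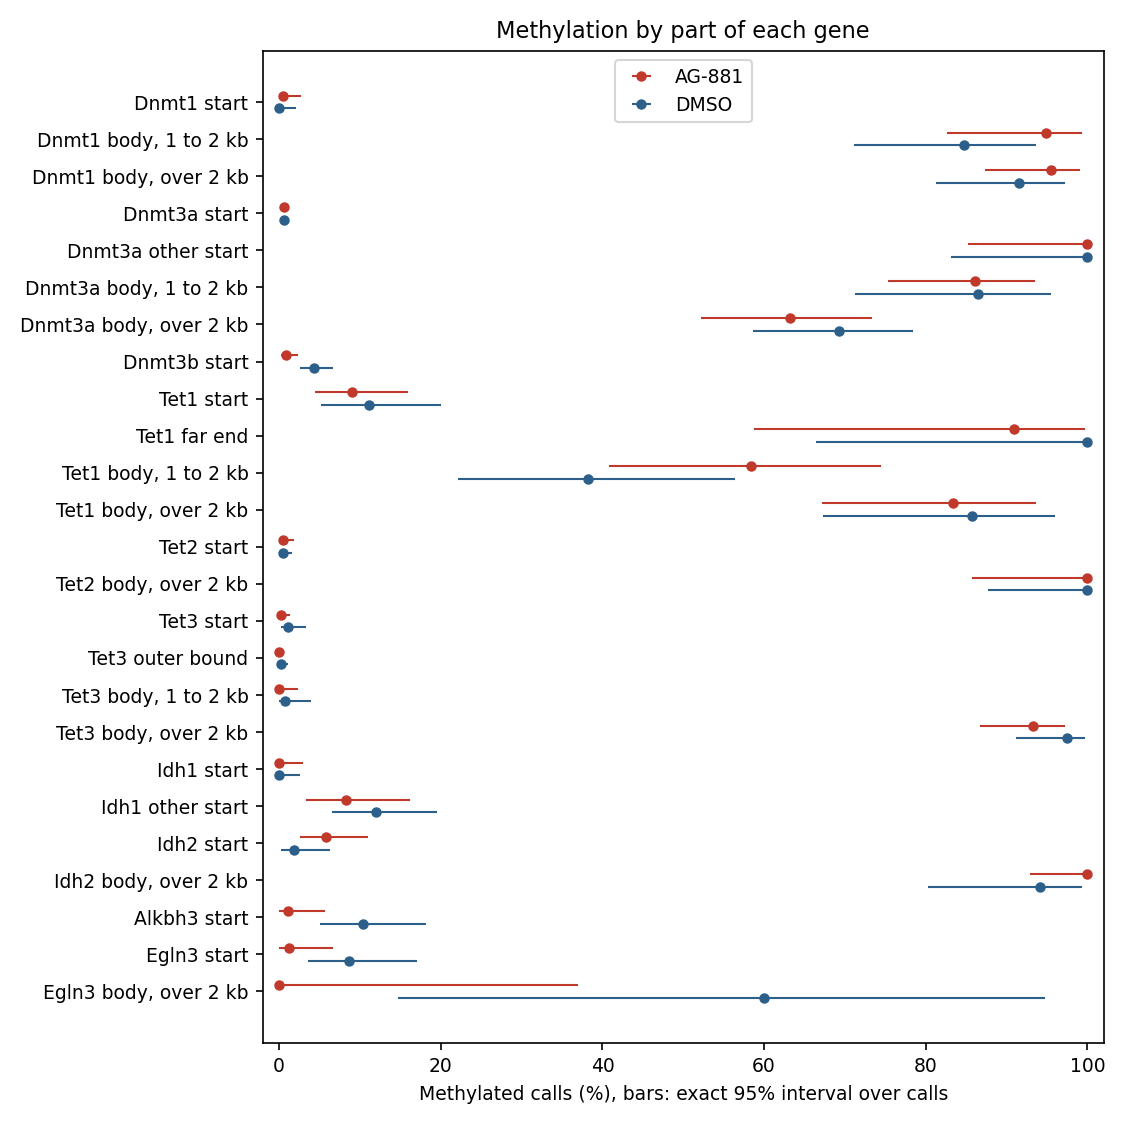
Percent of methylated calls in each measured part of the 10 genes, AG-881 above DMSO in each row, with exact 95% intervals over calls. Bodies are split at 2 kb from the nearest start or end. Starts lie at the left, below 12%, apart from the internal Dnmt3a start at 100%, and bodies over 2 kb inside lie above 60%, apart from the single Egln3 CpG.

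The other genes of these pathways were read from 6 lists with 94 genes, of which 55 had a measured start. In all, 22 were lower with AG-881, 22 were higher and 11 were equal, and 50 of the 55 were under 5% in both arms, beside 75.0% of all starts. P4htm was lower by at least 5 points, 1 of 55 beside 8.52% of all starts, and 0 of 55 were higher by as much beside 2.62%. Of starts with a mean level under 5%, 0.481% were lower and 0.232% higher by as much. The median difference was 0 points for the 55 genes, beside -0.02 points for all starts.

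P4htm, of the list of protein hydroxylases, encodes a transmembrane prolyl hydroxylase. It had 27 of 55 methylated calls with AG-881 (49.1%, interval 35.4 to 62.9) and 56 of 78 with DMSO (71.8%, interval 60.5 to 81.4), a difference of -22.7 points (interval -39.5 to -4.82). Its pools were at 57.1%, 83.3%, 42.9% and 31.8% with AG-881, against 76.2%, 50%, 76% and 70.8% with DMSO. AG-881 pool 1, with 7 calls, and DMSO pool 6, with 8, were under 10 calls. The highest pool of all was AG-881 pool 2, with 10 of 12 calls methylated. In that list 7 of 11 measured starts were lower and 3 were higher.

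In the remaining 5 lists no start was past 5 points, and nearly all of their starts were under 5% in both arms. In that range such differences were rare among all starts, and a start near 0 in both arms cannot differ by as much. Of 10 measured writers, readers and removal factors, 3 were lower and 5 higher, and the largest difference was at Zbtb4, a gene for a zinc finger protein that binds methylated DNA, with 27.8% with AG-881 and 30.9% with DMSO. Of 15 genes of isocitrate and 2-oxoglutarate metabolism, 7 were lower and 7 higher, and Got1, a cytosolic aspartate aminotransferase gene, was at 0.730% in the AG-881 arm and 2.86% in the DMSO arm. The 3 measured nucleic acid dioxygenase genes other than Alkbh3 included Alkbh4, with 0.893% with AG-881 and 0.909% with DMSO, and 0 of the 3 differed by 5 points. Of 10 histone demethylase genes 3 were lower and 4 higher, and Kdm4c had 1.3% with AG-881 and 0 of 170 calls with DMSO, which allows up to 1.76%. Of 6 genes of methyl donor synthesis 1 was lower and 3 higher, and Shmt1, a serine hydroxymethyltransferase gene, had 1.45% with AG-881 and 0 of 69 calls with DMSO, which allows up to 4.35%.

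For the 3 members at 5% or more in either arm with at least 10 calls in every pool, the genes with the most similar start levels over the 8 pools were found among 6523 genes by the mean absolute difference. Nearest to Alkbh3 was Plppr3, at 1.07 points on average, with 1.72% with AG-881 and 15.3% with DMSO, followed by Grb14 at 3.50 points and Slc27a1 at 3.69 points. Nearest to Tet1 were Arl10 at 2.99 points, Syde2 at 3.36 points and Plxnd1 at 3.45 points. Nearest to Idh2 were Tasor at 1.92 points, Pex16 at 2.09 points and Aph1c at 2.34 points. Plppr3 was therefore closer to Alkbh3 than any of the other nearest genes was to its member.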

How the data were processed

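The deposited table gives, per the file headers, 1 row per genomic position and 1 column per cell, and its values are the fraction of methylated reads made by the authors. Positions follow mm10, per the submitters' processing notes; 98.4% of table positions within RefSeq promoters of GRCm38.p6 fell on a CpG. How reads were aligned and calls made, and the reads needed for a value, is not given in the sources used here, so the read depth behind a value is unknown. Almost all values were 0 or 1. Values of 0.5 were 0.412% of all values. Adjacent positions were merged into 1 CpG and averaged per cell, so that each cell gives at most 1 call per CpG. Calls with a mean of 0.5 (0.649% of calls) were left out, and the others counted as methylated above 0.5 and unmethylated below it. An adjacent pair can in rare cases belong to neighbouring CpGs.

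Column names hold arm, library pool and barcode and no well, so a cell is known by its arm and pool. All 141 columns had different sets of called CpGs; the 24 barcode sequences were each used in more than 1 pool. Start windows were 1 kb either side of the annotated RefSeq start with the most table positions around it, a choice made after seeing the data. Far-end windows were 1 kb either side of the other end, and bodies lay over 1 kb from starts and ends. In Dnmt1, Dnmt3a, Tet3 and Idh2 the start used lies over 1 kb inside the annotated gene bound. Starts with strand were given for 17274 protein-coding genes. Calls were pooled per arm or pool over CpGs with a call in 5 or more cells of both arms, and a window counted as measured with 50 calls and 10 cells or more in both. No p-value was computed, since each arm is 1 plate. Limits for counts of 0 are 3 calls of the total. Depth was 10438 to 190259 CpGs per cell.

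All 10 members were named in all windows. Of each pathway list, genes past 5 points were named, or else the gene with the largest difference. Members and lists were chosen with earlier results of these data known. The scripts were tested on simulated data. Python 3.11.15, NumPy 2.4.6, SciPy 1.17.1 and Matplotlib 3.10.9 were used.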

Additional observations from a re-analysis of the deposited data

Results flagged for a closer look

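Among 30 sets of 4 pools of 1 arm, 7 had a pool that stood apart from the other 3. Chance flags about 1 in 20 such sets, and in each of the 7 the other 3 pools had no methylated call, so that 1 or 2 methylated calls were enough. In the AG-881 arm these were pool 3 at the starts of Dnmt1 (2.63%), Tet3 (1.56%), Alkbh3 (4.17%) and Egln3 (6.67%), and pool 1 at the start of Tet2 (1.82%). In the DMSO arm they were pool 7 at the start of Idh2 (11.1%) and pool 6 at the outer bound of Tet3 (0.840%). AG-881 pool 3 was also the pool with the highest mean level over all CpGs of its cells, 36.8%, against 31.2% to 33.1% in the other AG-881 pools; its part in these values was not tested.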

How the results depend on the processing

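No paired analysis was possible because the column names carry no replicate number shared by the arms. The pooled start difference of -0.88 points was -0.0660 with no minimum of cells per CpG and -0.21 with at least 10 cells, and -1.32 to 0.0410 with pools left out. The pooled body difference ran from -4.43 to 5.66 with pools left out, and the far-end difference from -16.7 to 0. Starts lower by the size rule numbered 666, against 232 with at least 10 cells per CpG, 251 at 10 points, 161 with at least 200 calls and 388 to 691 with pools left out. Starts higher numbered 205, against 80, 71, 27, 321 with at least 20 calls and 124 to 242 with pools left out. Over all alternatives the starts lower ran from 161 to 912. The number of starts measured changes with the cells and calls required, so these counts are not shares of the same starts. Among the 7819 starts the median was 185 calls in the shallower arm, so many fell short of 200. Among differences of at least 5 points with 50 calls per arm, signs turned at the start of Alkbh3 without AG-881 pool 4 (0.461) and without AG-881 pool 4 and DMSO pool 8 (2.13), at the body of Dnmt1 without AG-881 pool 1 and DMSO pool 5 (-2), and at the body of Tet1 with a window of 2 kb (-2.38) and without AG-881 pool 4 and DMSO pool 8 (-5). With pools left out, these 3 ran from -14.5 to 2.13 (Alkbh3), -2 to 14.5 (Dnmt1) and -5 to 17.3 (Tet1). For Alkbh3 the turn comes with the loss of its upstream CpGs; elsewhere the cause was not tested. Smaller differences turned too: the start of Tet1 (1.96 with a window of 2 kb, 3.999 without DMSO pool 5, 7.31 without AG-881 pool 1 and DMSO pool 5), the start of Tet2 (-2.46 with every cell given the same weight, and no lower than -0.42 in the other settings), the start of Dnmt3a, the bodies of Dnmt3a and Tet3, the pooled starts and bodies, and medians of the gene lists that were near 0. The far-end difference, from 1 CpG, was 2.58 with a window of 2 kb, which takes in more CpGs. With at least 10 cells per CpG, Alkbh3 and Egln3 were both at 0 points, since their methylated CpGs dropped out. Pools left out at the CpGs as first chosen, and outermost annotated starts, were added after seeing the data. Of all recomputed values for pooled windows and counts of genes, 136 stayed within set limits and 16 moved past them. For single windows and list medians, 694 stayed within, 6 moved past and 5 turned sign at a counted difference. Values within the limits include changes listed above, so they do not all stand for a stable difference. The start of Egln3 at 0 points is one, since its interval reached 0.0565. For windows the limit was the counting interval, and for counts of genes a move of at most 1.5 times. For list medians, which have no interval, it was a move of less than 1 point, a wide limit for medians this near 0.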
